A study of Homo sapiens with 54 samples.

Results

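LNCaP cells that received estradiol and the androgen receptor antagonist enzalutamide together were compared with vehicle-treated LNCaP cells. The comparison takes 3 E2+Enza libraries and 3 vehicle libraries, 6 of the 54 libraries in the series, chosen by their titles. It covers 14251 of the 19225 genes and other transcripts in the table, those with at least 1 count per 1000000 reads (CPM) in at least 3 of the 18 LNCaP libraries. Cells were given 17-beta-estradiol (E2, 100 nM) with enzalutamide (Enza, 1 µM), E2 alone, Enza alone, or ethanol vehicle, each for 12 h. A further 6 LNCaP libraries, given the compound OSU-ERb-12 (100 nM, 12 h) alone or with Enza, entered the filter and the common estimate of spread and no comparison here. The labels give RPMI 1640 with 10% fetal bovine serum as the maintenance medium of all groups and do not say whether steroids were removed from it. Total RNA was sequenced, and the labels call the 3 libraries of a group biological triplicates of the one cell line; p-values measure the spread between such libraries.

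The androgen receptor is a transcription factor that, once bound by a steroid, enters the nucleus and switches its target genes on or off. Enzalutamide binds that receptor and blocks its activation. LNCaP is a line from a prostate cancer lymph node metastasis. Estradiol is also the ligand of the estrogen receptors, of which ESR2 was measured here and ESR1 was not analysed here.

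The 6 libraries held 38959794 to 46616173 reads in genes, so that 1 read was worth 0.0207 to 0.0255 CPM, and 814 to 905 entries of the table had no read in a library. The label of a prostate luminal cancer line was checked against 7 luminal markers, whose summed level was 4081 to 4137 CPM in E2+Enza libraries and 3561 to 3708 CPM in vehicle libraries. The single basal marker measured, KRT14, lay at 0.862 to 1.04 CPM in E2+Enza and 0.506 to 0.849 CPM in vehicle. Of 4 neuroendocrine markers, 2 were measured and summed to 1.67 to 2.52 CPM in E2+Enza and 2.35 to 2.57 CPM in vehicle. The fibroblast markers measured, 2 of 3, summed to 17.2 to 20.1 CPM with E2+Enza and 17.6 to 20.2 CPM with vehicle, nearly all of it COL1A1. The leukocyte marker measured, CD68, lay at 6.86 to 7.78 CPM with E2+Enza and 7.97 to 8.37 CPM with vehicle. In bulk RNA, fewer cells of a type and less RNA per cell cannot be told apart. Transcripts of 7SL and other small RNAs took 16.2 to 17.4% of the reads in the E2+Enza libraries and 13.1, 15.9 and 17.6% in vehicle libraries 1, 2 and 3.

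The neighbouring kallikrein genes KLK3, which encodes prostate-specific antigen, and KLK2 are textbook targets of the androgen receptor. Their promoters, 250 bases before to 50 bases after the transcription start, are shown because both genes were higher with E2+Enza and their proximal hormone response elements differ by a base. KLK3 lies at chr19:50854665-50854964 and KLK2 at chr19:50873189-50873488, both on the plus strand of RefSeq GRCh38.p14. Capitals mark the matching window of 15 bases in each.
KLK3: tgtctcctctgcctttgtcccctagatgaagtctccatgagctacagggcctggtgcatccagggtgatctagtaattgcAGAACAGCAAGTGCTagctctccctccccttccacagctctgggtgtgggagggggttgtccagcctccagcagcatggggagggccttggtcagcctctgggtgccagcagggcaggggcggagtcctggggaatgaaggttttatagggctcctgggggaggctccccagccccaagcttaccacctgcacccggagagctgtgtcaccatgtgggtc
KLK2: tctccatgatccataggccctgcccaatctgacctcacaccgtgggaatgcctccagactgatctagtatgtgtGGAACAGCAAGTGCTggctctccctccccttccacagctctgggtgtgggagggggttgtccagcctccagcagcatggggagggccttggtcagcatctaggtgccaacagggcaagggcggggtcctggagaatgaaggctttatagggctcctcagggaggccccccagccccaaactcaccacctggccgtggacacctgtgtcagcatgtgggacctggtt
The window starts at position -170 from the KLK3 start site and at position -176 from that of KLK2. Counted from 1 at the 5′ end of the window, the single substitution from KLK3 to KLK2 is A1G, and 225 of 294 aligned bases of the promoters were identical (76.5%). The letters AGAACA, an arm of the hormone response element and searched on both strands, occur in the KLK3 promoter and not in that of KLK2. It occurred in 4056 of 27305 RefSeq promoters of this length (14.9%), in 4 of 31 promoters of the androgen-induced list described later (FKBP5, KLK3, PMEPA1 and SLC38A4; 12.9%) and in 2 of 12 of the hormone-repressed list (PLD1 and UGT2B15; 16.7%). The full inverted repeat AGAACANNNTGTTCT, which contains that arm on each strand, was found in 1 of the 27305 promoters (0.00366%) and the estrogen response element GGTCANNNTGACC in 18 (0.0659%), none of them in either list.

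With both agents together, 1058 of 14251 genes differed from vehicle at an adjusted p under 0.05 (7.42%; limma with a mean-variance trend, Benjamini-Hochberg), 644 higher (4.52%) and 414 lower (2.91%). Known androgen-induced genes led the higher side, among them SLC38A4, MAF, FKBP5 and SLC45A3, and genes that androgens repress, such as DAPK1, OPRK1 and CBLN2, led the lower side. Most changes were small. The median absolute log2 fold change of the called genes was 0.20, 125 called genes reached 0.5 (71 higher, 54 lower), and 13 reached a 2-fold difference (0.0912% of genes tested), 11 of them higher (0.0772%). The median SE of a log2 fold change over all genes was 0.059. CPM were set to the authors' effective library sizes; with CPM over total reads instead, 773 genes were called, with 333 higher and 440 lower, and the median of all genes moved to -0.02 from 0.00. The direction of the split therefore turned with the scaling, and the list medians given below are to be read against a shift of that size.

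**Figure D1:**
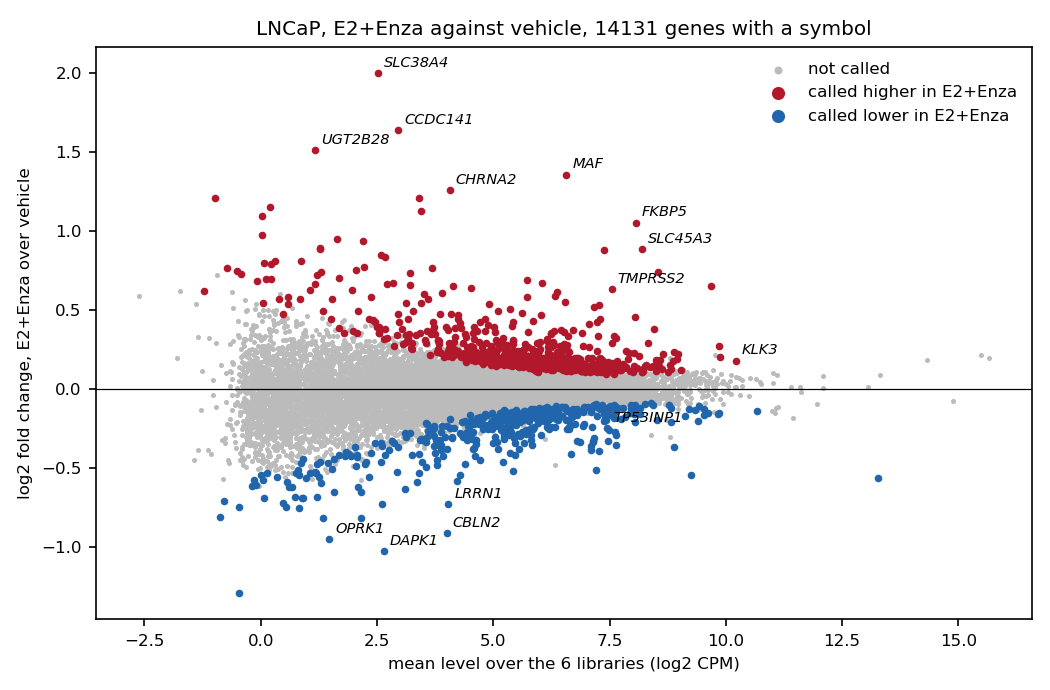
Log2 fold change of E2+Enza over vehicle (vertical axis) against the mean level over the 6 libraries in log2 CPM (horizontal axis), 1 point a gene, for those of the 14251 genes tested that have a symbol. Red points are genes called higher (644 of all tested) and blue points genes called lower (414 of all tested); SLC38A4 stands highest at 2.00, and the abundant kallikrein KLK3 lies near 0 at 0.18.

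The gene with the largest rise was SLC38A4, a sodium-coupled transporter of amino acids (chromosome 12, 46764761 to 46832431). Its level was 11.5, 8.14 and 8.69 CPM in the 3 E2+Enza libraries, against 2.44, 2.14 and 1.41 CPM in the 3 vehicle libraries, a log2 fold change of 2.00 ± 0.15 (SE; adjusted p = 4.84e-10, limma). Every E2+Enza library lay above every vehicle library, and the same held for each of the following genes of this paragraph. Groups without overlap were a condition for naming a gene among the largest rises or falls, so this is no added support. CCDC141, a coiled-coil protein gene known as a strong androgen target, stood at 14.8, 10.1 and 11.1 CPM with E2+Enza, against 4.43, 3.67 and 2.51 CPM with vehicle (1.64 ± 0.15 on the log2 scale). MAF, a bZIP transcription factor (chromosome 16, 79202622 to 79600737), had 152, 128 and 129 CPM in E2+Enza libraries, against 56.04, 50.9 and 51.5 CPM in vehicle libraries (1.36 ± 0.06; adjusted p = 9.65e-16). The first E2+Enza library was the highest of its group for SLC38A4, CCDC141 and MAF alike. CHRNA2, a subunit of the nicotinic acetylcholine receptor, averaged 23.8 ± 2.09 CPM with E2+Enza and 9.61 ± 0.453 CPM with vehicle (SD, n = 3 each). PDE3A, a phosphodiesterase that degrades cyclic AMP, averaged 14.97 ± 1.95 CPM with E2+Enza and 6.17 ± 0.506 CPM with vehicle (log2 fold change 1.21 ± 0.10). UGT2B28, an enzyme that glucuronidates steroids, had 3.88, 4.13 and 2.70 CPM with E2+Enza, against 0.994, 0.942 and 0.792 CPM with vehicle, but has near-identical copies that share its reads, so that its value is uncertain.

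Lower on the list of largest rises, the scaffold protein AKAP12 stood at 15.9, 13.5 and 15.01 CPM in E2+Enza libraries, against 5.59, 4.43 and 10.9 CPM in vehicle libraries, with vehicle 3 well above the other two. DOCK8, a guanine nucleotide exchange factor, NNT, the mitochondrial transhydrogenase, and SLC2A3, a glucose transporter, each lay under 2 CPM in all 6 libraries and rose by log2 fold changes of 1.15 ± 0.21, 1.10 ± 0.18 and 0.98 ± 0.20. The alcohol dehydrogenase ADH1C averaged 4.27 ± 0.514 CPM with E2+Enza and 1.96 ± 0.174 CPM with vehicle. HPGD, which degrades prostaglandins, averaged 6.15 ± 0.754 CPM with E2+Enza and 2.98 ± 0.448 CPM with vehicle. TMEM121B, a transmembrane protein gene, rose by 0.89 ± 0.15. On the log2(CPM + 0.5) scale used, the change of genes at such low levels is understated.

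Of the abundant androgen targets, FKBP5, a co-chaperone of steroid receptors (chromosome 6, 35573590 to 35728583), had 422, 327 and 336 CPM in E2+Enza libraries, against 183, 168 and 168 CPM in vehicle libraries, 2.07 times the vehicle level by the fit (log2 fold change 1.05 ± 0.06, adjusted p = 1.72e-13). SLC45A3, known as prostein, had 399.6, 372 and 374 CPM with E2+Enza, against 202, 209 and 209 CPM with vehicle (0.88 ± 0.04; adjusted p = 8.08e-16). Both genes had groups that did not overlap, a pattern found in 3457 of the 14251 genes tested (24.3%). TMPRSS2, a membrane serine protease (chromosome 21, 41464305 to 41508158), averaged 227 ± 2.29 CPM with E2+Enza and 146 ± 3.63 CPM with vehicle (0.63 ± 0.03). PMEPA1, a feedback inhibitor of TGF-beta signalling, averaged 217 ± 8.59 CPM with E2+Enza and 118 ± 9.34 CPM with vehicle (0.88 ± 0.04).

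The kallikreins moved less. KLK3 (chromosome 19, 50854915 to 50860764) had 1237, 1248 and 1299 CPM in E2+Enza libraries, against 1111, 1079.7 and 1153 CPM in vehicle libraries, a log2 fold change of 0.18 ± 0.04 (adjusted p = 0.00281, limma). The groups did not overlap, yet in 1 fit of all 54 libraries the adjusted p was 0.174 and KLK3 was not called. KLK2, which carries the substituted window shown above, had 222, 216 and 228 CPM with E2+Enza, against 182, 173 and 179 CPM with vehicle (0.32 ± 0.04; adjusted p = 5.58e-06). KLK4, a further prostate kallikrein, averaged 60.7 ± 3.14 CPM with E2+Enza and 55.8 ± 0.453 CPM with vehicle and did not pass the test (adjusted p = 0.146). TRPM8, a cold-sensing ion channel and androgen target, averaged 11.4 ± 1.02 CPM with E2+Enza and 12.7 ± 0.845 CPM with vehicle, with overlapping groups (log2 fold change -0.16 ± 0.09, 95% interval -0.34 to 0.02; adjusted p = 0.303).

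**Figure D2:**
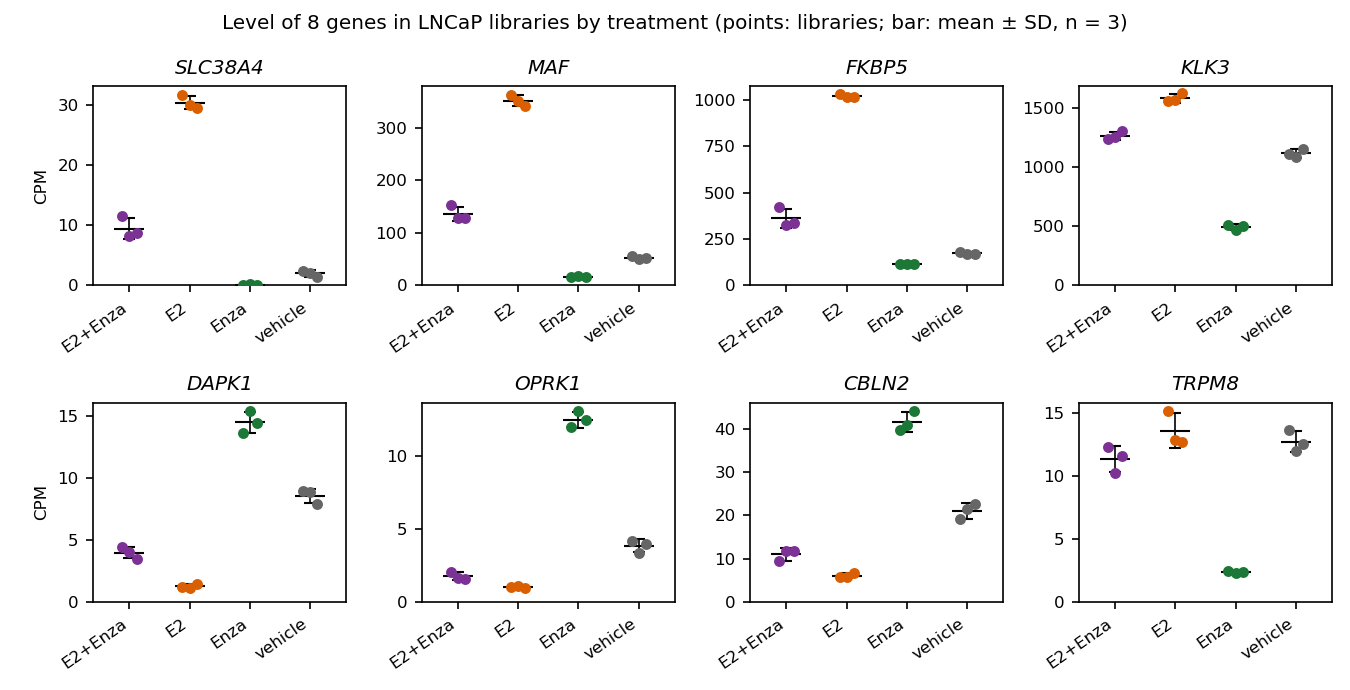
Level in CPM (vertical axes, from 0) of 8 genes in each LNCaP library under E2+Enza, E2, Enza and vehicle; points are libraries, and bars give the mean ± SD of 3. FKBP5 and MAF lie between E2 and vehicle under both agents, DAPK1, OPRK1 and CBLN2 lie below vehicle, and TRPM8 lies near vehicle, far above its level of 2.34 ± 0.0687 CPM under Enza alone.

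On the lower side, DAPK1, a calcium/calmodulin-dependent kinase linked to cell death, fell to 4.39, 3.98 and 3.49 CPM in E2+Enza libraries, against 8.93, 8.86 and 7.90 CPM in vehicle libraries (-1.03 ± 0.10; adjusted p = 2.07e-08, limma). OPRK1, the kappa opioid receptor, had 2.06, 1.62 and 1.55 CPM with E2+Enza, against 4.18, 3.34 and 3.98 CPM with vehicle (-0.95 ± 0.11). CBLN2, a secreted synapse organiser, had 9.33, 11.8 and 11.7 CPM with E2+Enza, against 19.03, 21.3 and 22.7 CPM with vehicle (-0.91 ± 0.08). In these 3 genes the highest E2+Enza library lay below the lowest vehicle library, as the naming rule required of the largest falls. LRRN1, a leucine-rich repeat membrane protein, averaged 12.2 ± 0.744 CPM with E2+Enza and 20.6 ± 1.62 CPM with vehicle, and ZPLD1, a zona pellucida domain protein, 4.45 ± 0.252 CPM with E2+Enza and 7.72 ± 0.79 CPM with vehicle. ABCA1, which exports cholesterol from cells, averaged 1.20 ± 0.329 CPM with E2+Enza and 2.35 ± 0.228 CPM with vehicle (-0.76 ± 0.15). SLITRK3 and PLPPR1, membrane proteins of neurons, fell by 0.82 and 0.66 on the log2 scale, and CCDC83 by 0.69. The sucrase-isomaltase gene SI (-0.73 ± 0.16) lost its call without E2+Enza library 1 (adjusted p = 0.0513). The remaining 5 of the 15 largest falls were ASZ1, a germ cell gene, the sodium channel subunit SCNN1G, the hormone STC1, the long non-coding RNA PURPL and the arginine tRNA gene TRR-CCT3-1. They lay at -0.75 to -0.68 and each lost its call in 2 to 8 of its alternative settings.

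MAB21L4 had the lowest log2 fold change of all called genes (-1.29 ± 0.22; adjusted p = 0.000204). Its level was 0.133, 0.26 and 0.177 CPM with E2+Enza, against 0.704, 1.12 and 1.96 CPM with vehicle, below the mean of 1 CPM set for named genes, and it is named here after its values were seen. The same is true of 2 abundant nuclear long non-coding RNAs. MALAT1 had 7459, 6630 and 9914 CPM in E2+Enza libraries, against 13900, 11980 and 9513 CPM in vehicle libraries (-0.56 ± 0.15; adjusted p = 0.0232). NEAT1 had 453, 417 and 624 CPM with E2+Enza, against 857, 725 and 587 CPM with vehicle (-0.54 ± 0.14; adjusted p = 0.0179). For both, E2+Enza library 3 lay above vehicle library 3, so the groups overlapped. Their spread between libraries of 1 group was wide, and vehicle libraries 1 to 3 held 13.1, 15.9 and 17.6% small RNA; whether it had a part in the difference was not tested.

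Gene lists chosen with earlier results of these data known were counted and given no test; 4.52% of all genes tested were higher and 2.91% lower, with a median log2 fold change of 0.00. Of 41 androgen-induced genes, all tested, 30 were higher and 1 lower, with a median of 0.41. The lower one was ACP3, prostatic acid phosphatase, at 10.1, 9.70 and 7.96 CPM with E2+Enza, against 12.5, 13.3 and 12.9 CPM with vehicle (-0.47 ± 0.08). Its log2 fold change over vehicle was -0.67 with E2 alone and 0.95 with Enza alone, both opposite to most of its list. Further members that rose were ACSL3, an acyl-CoA synthetase (0.74 ± 0.04), MBOAT2, a phospholipid acyltransferase (0.52 ± 0.04), NDRG1, a stress-responsive gene (0.67 ± 0.10), and SPDEF, an ETS factor of luminal cells (0.28 ± 0.03). Of 20 hormone-repressed genes tested, 12 were lower and 2 higher, with a median of -0.31. The lower ones included CAMK2N1, an inhibitor of CaM kinase II (-0.52 ± 0.05), PLD1, a phospholipase (-0.71 ± 0.17), and the p53-linked gene TP53INP1 (-0.25 ± 0.03). The 2 higher were UGT2B28 and UGT2B11, members of a family of near-identical genes whose reads cannot be told apart with certainty. Over vehicle they stood at 2.65 and 1.39 with E2 alone and at -0.31 and -0.16 with Enza alone, opposite to most of their list.

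Genes shared with the glucocorticoid response followed the androgen-induced ones, 8 of 15 higher and none lower (median 0.24). FKBP5 and ZBTB16 stand in both lists, so the counts of the 2 lists are not separate. Other androgen-induced members are counted again in lists below, among them SLC38A4, ACSL3, SPDEF, PMEPA1 and NDRG1. SGK1, a serum- and glucocorticoid-induced kinase, had 5.92, 5.09 and 4.78 CPM in E2+Enza libraries, against 2.92, 2.24 and 3.72 CPM in vehicle libraries (0.75 ± 0.13). Among the others, the clock gene PER1 (0.40 ± 0.06), the zinc finger factor ZBTB16 (0.43 ± 0.06), the phosphatase DUSP1 (0.32 ± 0.05) and the EGFR inhibitor ERRFI1 (0.42 ± 0.04) also rose. Of 14 luminal prostate genes, 5 were higher and 1 lower, FOLH1, which encodes prostate-specific membrane antigen (-0.15 ± 0.03); FOXA1, a pioneer factor, was among the higher (0.13 ± 0.03). Of 14 ETS factors 2 were higher (SPDEF and ELK4) and none lower, and of 14 receptor coregulators and FOXA factors 1 was higher (FOXA1) and 1 lower (NCOA1).

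Estrogen receptor targets and steroid receptor genes gave 2 calls each, among 17 and 7 tested, against 7.42% of all genes. Of 17 ER-activated genes tested, 2 were higher and none lower (median -0.01). GREB1, which both receptors are known to induce, had 30.2, 27.1 and 27.02 CPM with E2+Enza, against 20.1, 16.3 and 17.3 CPM with vehicle (0.64 ± 0.09; adjusted p = 3.69e-05, limma), and the lysosomal protease CTSD rose by 0.15 ± 0.03. PGR, the progesterone receptor and a classical estrogen target, averaged 0.548 ± 0.286 CPM with E2+Enza and 0.92 ± 0.33 CPM with vehicle with overlapping groups (adjusted p = 0.178). ESR2 had 1.60, 2.34 and 1.77 CPM in E2+Enza libraries, against 2.26, 2.57 and 1.65 CPM in vehicle libraries, which overlapped (log2 fold change -0.14 ± 0.16, 95% interval -0.47 to 0.18; adjusted p = 0.643). Among steroid receptor genes VDR, the vitamin D receptor, was called at -0.13 ± 0.04 (adjusted p = 0.0498) and kept that call in 3 of 15 alternative settings. Of 9 genes of steroid and androgen metabolism 1 was higher, the 5-alpha reductase SRD5A1 (0.19 ± 0.05).

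In lists of the secretory pathway and of nutrient supply most members did not pass the test. Of 19 unfolded protein response genes 6 were higher and none lower (median 0.09), among them HERPUD1, a factor of ER-associated degradation (0.21 ± 0.04), and the secreted ER proteins CRELD2 (0.21 ± 0.04) and MANF (0.16 ± 0.04); with CPM over total reads 3 were called. Of 14 amino acid transporters 5 were higher and none lower (median 0.11), led by SLC38A4, with SLC7A8 (0.24 ± 0.04) and SLC43A1 (0.22 ± 0.04); 3 were called over total reads. Of 18 amino acid stress (ATF4) genes 2 were higher (SLC3A2 and VLDLR). Among 14 fatty acid synthesis genes 3 were higher, including the elongase ELOVL5 (0.22 ± 0.04), and the desaturase FADS1 was lower (-0.15 ± 0.04). Polyamine synthesis genes gave 2 higher (SAT1 and ARG2) and 1 lower (AMD1) of 11, glucose uptake and glycolysis genes 2 higher of 21 (SLC2A3 and HK1), hypoxia genes 1 higher of 10 (NDRG1) and oxidative stress (NRF2) genes 1 higher of 11 (GCLC).

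Growth signalling and cell cycle genes followed. IGF1R, the insulin-like growth factor receptor, had 110.4, 95 and 97.1 CPM in E2+Enza libraries, against 73.01, 61.2 and 63.4 CPM in vehicle libraries (0.61 ± 0.06), with no overlap, and its adaptor IRS2 also rose (0.37 ± 0.08), 2 of 8 genes of that axis. Of 10 ErbB receptor and feedback genes 3 were higher, the inhibitors ERRFI1 and LRIG1 (0.35 ± 0.04) and the phosphatase DUSP4, and 1 lower (SPRY1). Of 13 immediate early genes 3 were higher, NR4A1, an orphan nuclear receptor (0.44 ± 0.06), DUSP1 and MYC (0.12 ± 0.03); MYC kept its call in 8 of 15 alternative settings. Of 28 G1/S and DNA replication genes 5 were lower and none higher (median -0.08). They were the cyclin CCNE2 (-0.22 ± 0.05), the sliding clamp PCNA (-0.15 ± 0.04), MCM4, MCM10 and POLA1, and 2 of the 28 were called in a fit of the 6 libraries alone. One of 24 G2/M and mitosis genes was higher (CCNB2). Of 21 p53 targets 6 were lower and none higher (median -0.11), with SESN1, a stress-induced inhibitor of growth signalling (-0.38 ± 0.04), BTG2 (-0.20 ± 0.04) and MDM2 (-0.12 ± 0.03); 3 were called from the 6 libraries alone.

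The remaining lists gave at most 3 calls each. Several of these short lists still lay above the 7.42% called among all genes tested. Some calls in these and the lists above were lost under many settings. Of 15 alternatives each, RNF43 kept its call in 5, POLA1 and MCM10 in 6, CCNB2 and HK1 in 7, SLC3A2 and NCOA1 in 8, and SRD5A1, NFKBIA and HSP90AA1 in 9. TGF-beta and BMP genes had 2 higher (PMEPA1 and BMPR1B) and 1 lower (TGFBR3) of 12, WNT genes 1 higher (WNT7B) and 1 lower (RNF43) of 11, and NF-kappaB genes 1 higher (NFKBIA) and 2 lower (NFKB1 and BIRC3) of 8. Heat shock genes had 1 lower of 11, HSP90AA1, a chaperone of steroid receptors (-0.14 ± 0.04). Interferon genes had no call among 15, aryl hydrocarbon receptor genes none among 4, and xenobiotic receptor (PXR) genes none among 3. Fibroblast or mesenchyme genes had 1 lower of 7 (FN1, fibronectin, -0.37 ± 0.05) and neuroendocrine genes 1 lower of 4 (SYT4, a synaptotagmin, -0.34 ± 0.04). Basal epithelium genes had no call among 4, and the 1 leukocyte gene tested was not called. Cytosolic ribosomal protein genes had no call among 25 (median 0.05) and mitochondrially encoded mRNAs none among 13 (median -0.11).

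**Figure D3:**
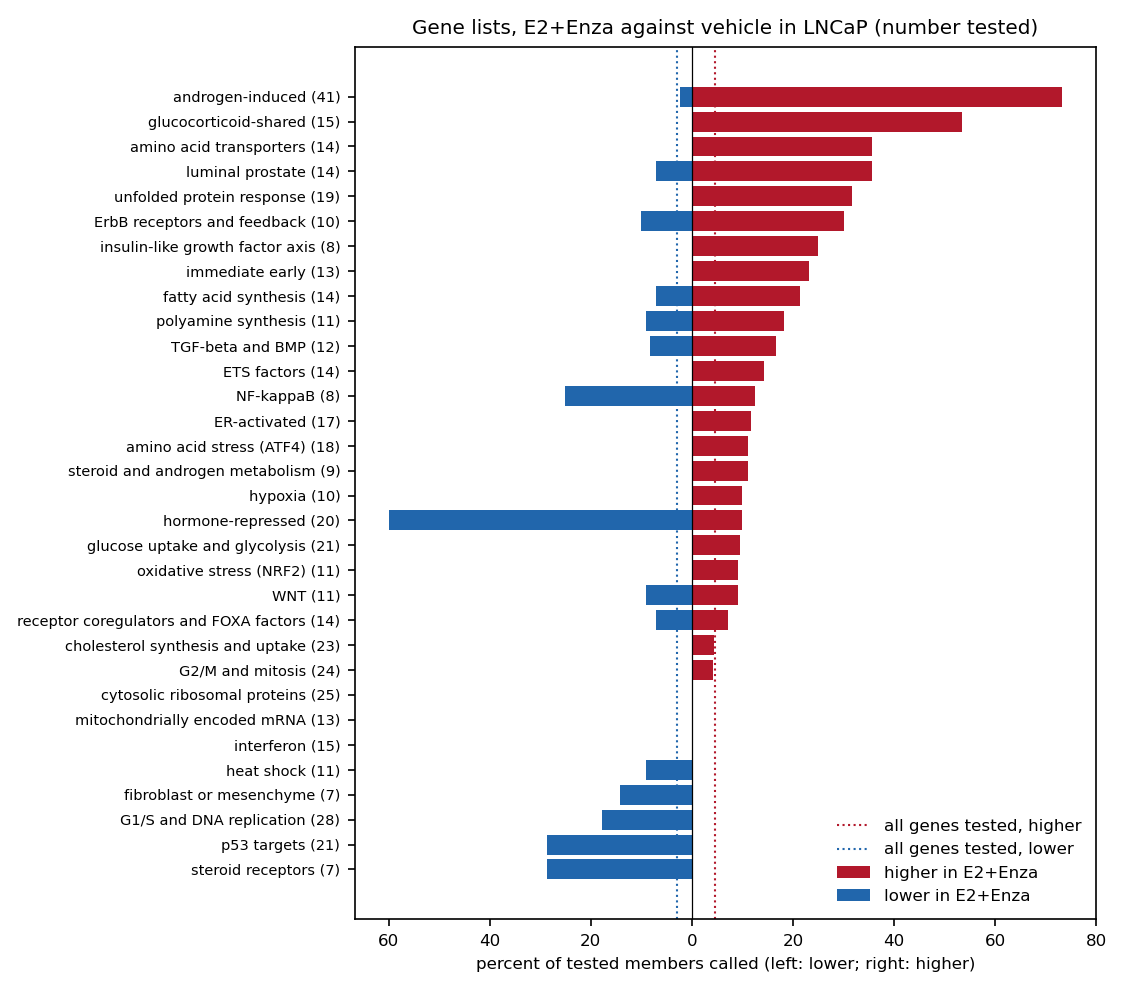
Percent of tested members of each list (number tested in brackets, lists of 7 or more) called higher with E2+Enza than with vehicle (red, to the right) or lower (blue, to the left). Dotted lines mark 4.52% and 2.91%, the shares among all genes tested; androgen-induced genes reach the furthest right and hormone-repressed genes the furthest left.

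How far the levels under both agents lay from those under each alone was asked next, in the same fit. E2+Enza differed from Enza alone in 3291 of 14251 genes (23.1%), 1733 higher (12.2%) and 1558 lower (10.9%). The largest rises over Enza alone included those in CHRNA2, CCDC141, SLC38A4 and MAF, at log2 differences of 4.27, 4.26, 4.11 and 3.01. Over 15 alternatives CHRNA2 ran from 3.22 to 4.95 and CCDC141 from 2.69 to 6.27. SLC38A4 ran from 2.45 to 7.54 and MAF from 2.90 to 3.05, so their order depends on the setting. The largest falls were in OPRK1 (-2.54 ± 0.11), the amino acid transporter SLC6A20 (-2.16 ± 0.16), PLD1, ABCA1 and CBLN2. Their order too depends on the setting, with OPRK1 from -2.84 to -1.95 and SLC6A20 from -3.48 to -1.11 over the alternatives. E2+Enza differed from E2 alone in 1928 genes (13.5%), 894 higher (6.27%) and 1034 lower (7.26%). STEAP4, a metalloreductase, lay furthest below its level under E2 alone (-2.47 ± 0.18), with SLC2A3, SGK1, CCDC141 and NDRG1 next. Above E2 alone stood DAPK1 (1.33 ± 0.10), the transglutaminase TGM3 (1.21 ± 0.14), the fatty acid receptor FFAR2, the forkhead factor FOXN4 and LRRN1. Over total reads these splits became 1247 higher and 1729 lower against Enza, and 1135 higher and 707 lower against E2. All of these comparisons share the E2+Enza libraries, and E2 and Enza are each compared with the same vehicle libraries.

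A position between Enza alone, set to 0, and E2 alone, set to 1, was computed on the log2 scale without the vehicle libraries, for members of the 2 hormone lists whose E2 and Enza levels differed at least 2-fold. Over 33 androgen-induced genes the median position of E2+Enza was 0.709. By E2+Enza library it was 0.748, 0.681 and 0.693, and on the same scale the vehicle libraries stood at 0.489, 0.456 and 0.505, so the groups did not overlap. NDRG1 had the lowest position (0.278, vehicle 0.002) and TRPM8 the highest (0.893, vehicle 0.961). FKBP5 stood at 0.523, MAF at 0.688 and KLK3 at 0.806, with vehicle at 0.190, 0.377 and 0.700. The position of a gene alone therefore does not give its change from vehicle. Over 17 hormone-repressed genes the median was 0.693, by library 0.757, 0.661 and 0.666, against 0.443, 0.439 and 0.410 in the vehicle libraries. Positions there ran from 0.533 for the chemokine receptor ACKR3 (vehicle 0.400) to 0.902 for the ligand WNT5A (vehicle 0.759). These are descriptions; the lists were chosen for their response to such agents.

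**Figure D4:**
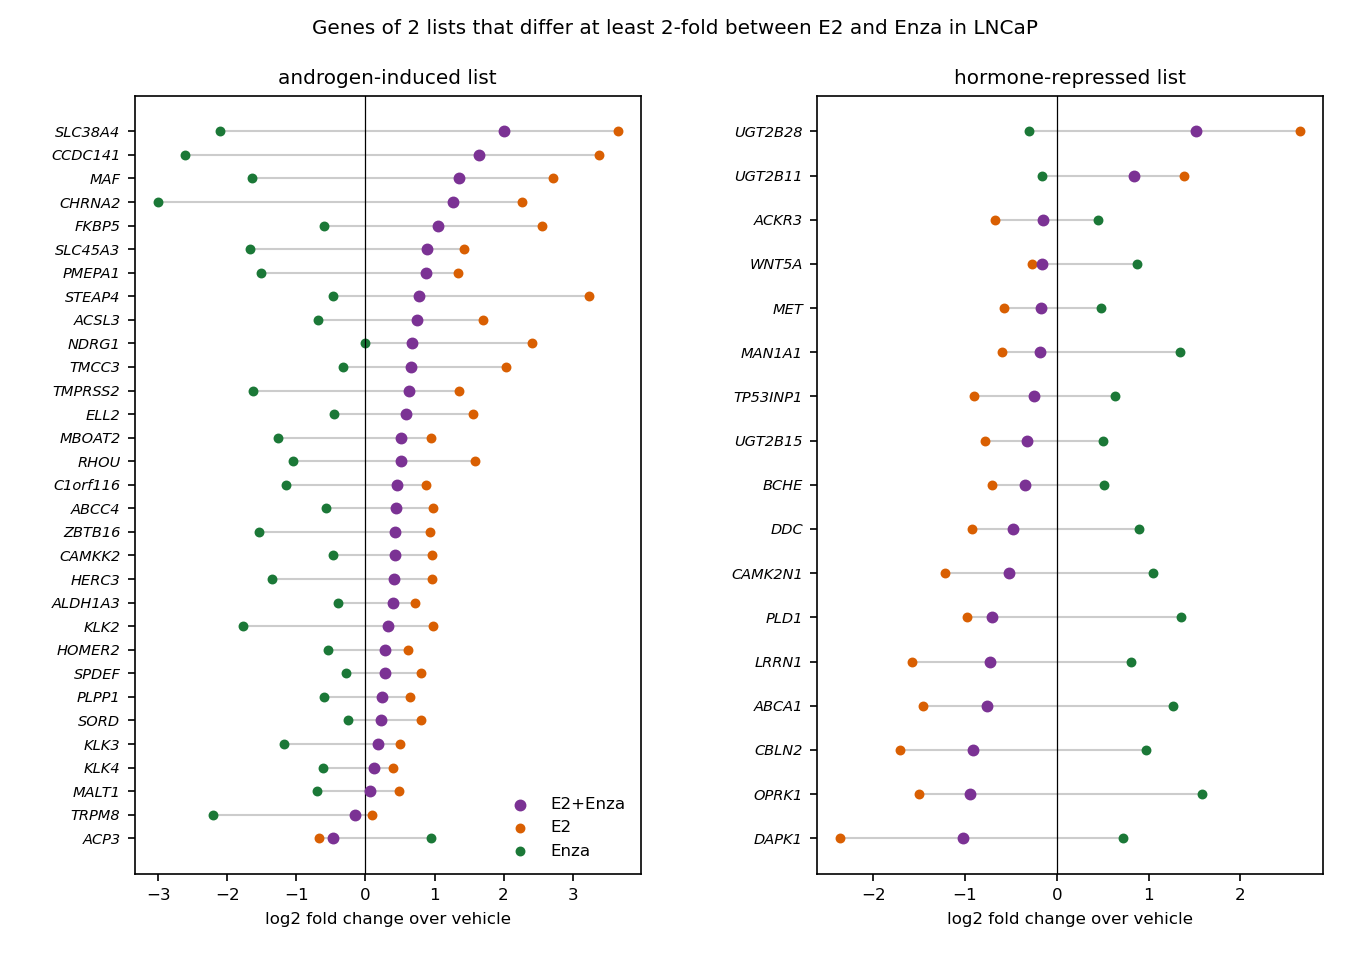
Log2 fold change over vehicle (horizontal axis) under E2+Enza (purple), E2 (orange) and Enza (green) for androgen-induced (left, 33 in all, not all drawn) and hormone-repressed genes (right, 17) that differ at least 2-fold between E2 and Enza, sorted by the value under E2+Enza. The 3 values of a gene share the vehicle libraries; the purple point lies between the others in all genes drawn, at a median of 0.709 and 0.693 of the way from Enza to E2.

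The difference between E2 alone and Enza alone shares no library with the comparison of E2+Enza and vehicle, and was used to group genes after the data had been seen. Both come from the same fit and use the same estimate of a gene's spread. A gene with a small estimate is called more easily in both, so the shares called below are not independent of the grouping. E2 differed from Enza in 35.5% of genes. Of 247 genes called and at least 2-fold higher with E2 than with Enza (1.73%), 152 were higher with E2+Enza than with vehicle and none lower (61.5%; median 0.36). Of 137 genes called and at least 2-fold lower with E2 than with Enza (0.961%), 62 were lower with E2+Enza and none higher (45.3%; median -0.31). Among the 9186 genes with no call between E2 and Enza, 145 were higher (1.58%) and 158 lower (1.72%). This became 50 higher and 157 lower over total reads, 55 and 63 without E2+Enza 1, 48 and 58 without E2+Enza 2, 67 and 74 without vehicle 1, 75 and 79 without vehicle 2, and 273 and 305 without vehicle 3. Across the 14251 genes, which are not independent replicates, these log2 differences had Pearson's r of 0.51 and Spearman's rho of 0.30.

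**Figure D5:**
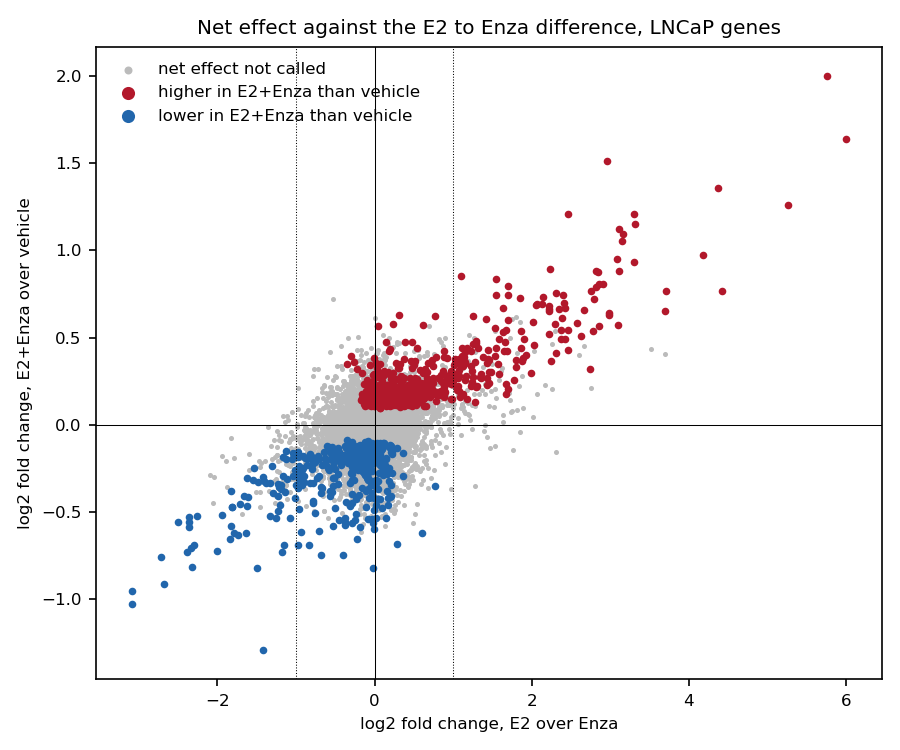
Log2 fold change of E2+Enza over vehicle (vertical axis) against that of E2 over Enza (horizontal axis), 1 point a gene for 14251 genes less those without a symbol. Dotted lines mark 2-fold; to the right of them 152 of 247 genes are called higher and to the left 62 of 137 are called lower.

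Whether the joint effect equals the sum of the single effects on the log2 scale was tested as the effect of E2 with Enza minus its effect without. The sum was departed from in 1290 of 14251 genes (9.05%), 643 above it (4.51%) and 647 below (4.54%); over total reads the split was 660 above and 359 below. TRPM8 had 12.3, 10.3 and 11.5 CPM with E2+Enza, 15.2, 12.9 and 12.7 CPM with E2, 2.41, 2.28 and 2.33 CPM with Enza and 13.6, 11.97 and 12.5 CPM with vehicle. Only the Enza libraries stood apart, low, and E2+Enza lay 1.97 ± 0.12 above the sum (adjusted p = 7.82e-12, limma). CHRNA2 (2.01 ± 0.13), the phospholipase-domain gene PLCXD3 (1.95 ± 0.25) and the focal adhesion protein TNS3 (1.61 ± 0.19) also lay above it. KLK3, KLK2, TMPRSS2, SLC45A3 and PMEPA1 lay above the sum by 0.85, 1.12, 0.92, 1.13 and 1.04. SGK1 went the other way, with 5.92, 5.09 and 4.78 CPM under E2+Enza, 20.4, 22.3 and 21.7 CPM under E2, 4.06, 4.22 and 3.51 CPM under Enza and 2.92, 2.24 and 3.72 CPM under vehicle. Its E2 libraries alone were high, and E2+Enza lay below the sum (-2.31 ± 0.19; adjusted p = 1.31e-09). STEAP4 (-2.00 ± 0.26), NDRG1 (-1.74 ± 0.15), the lipase gene PNLIP (-1.48 ± 0.25), AMOTL1, a Hippo pathway scaffold (-1.48 ± 0.25), FKBP5 (-0.91 ± 0.08) and ERRFI1 (-0.91 ± 0.06) also lay below it. STEAP4 was not called with voom weights (adjusted p = 0.393).

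The same comparison in the other lines was set beside LNCaP in 1 fit of 54 libraries and 16026 genes. In that fit E2+Enza differed from vehicle in 2625 genes in 22Rv1 (16.4%), a line from a relapsed xenograft, in 27 genes in C4-2 (0.168%), a derivative of LNCaP, and in 657 genes in LNCaP (4.1%). The 22Rv1 count fell to 1179 without 22Rv1 E2+Enza 3 and to 1332 without 22Rv1 vehicle 1, and its split of 1704 higher and 921 lower became 588 and 1538 over total reads. The LNCaP count in this fit fell to 353 and 398 without LNCaP E2+Enza 1 and 2, and to 432 and 415 without LNCaP vehicle 1 and 2. The C4-2 count ran from 8 without C4-2 E2+Enza 2 to 70 without C4-2 E2+Enza 3. At an unadjusted p under 0.05 the counts were 4956 in 22Rv1, 1456 in C4-2 and 2686 in LNCaP. One library titled as C4-2 vehicle carries the cell line tag of 22Rv1 and was kept by its title. It had 953 entries with no read, within the range of all C4-2 libraries (924 to 1282) and outside that of 22Rv1 libraries (519 to 677). The effect itself differed between 22Rv1 and LNCaP in 631 genes (3.94%) and between C4-2 and LNCaP in 87 genes (0.543%), 62 of these lower in C4-2 (0.387%). The count for C4-2 was 51 without the library of the conflicting tag, and ranged from 43 to 190 as single libraries were left out. SLC38A4 averaged 0.409 CPM with E2+Enza and 0.137 CPM with vehicle in C4-2, levels below the pseudocount of 0.5, and its difference from LNCaP (-1.50; adjusted p = 1.35e-05, limma) was not called with a pseudocount of 0.1 or with voom weights (highest adjusted p = 0.662). DAPK1, which stood at 13.6 CPM with E2+Enza and 13.999 CPM with vehicle in C4-2, fell in LNCaP (difference 0.98, adjusted p = 6.21e-05). In 22Rv1 DAPK1 averaged 4.42 CPM with E2+Enza and 4.23 CPM with vehicle (difference from LNCaP 1.08, adjusted p = 1.52e-06, limma). MBOAT2 averaged 76.0 CPM with E2+Enza and 22.6 CPM with vehicle in 22Rv1, a larger rise than in LNCaP (difference 1.21; adjusted p = 8.54e-17).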

How the data were processed

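Total RNA was extracted with TRIzol and made into libraries with a stranded total RNA kit, per the labels' protocols. The tools in the submitters' processing notes are FastQC, Trimmomatic, featureCounts and edgeR, with the hg38 build; the design text adds Rsubread, and the sources used here give no versions. The deposited values, called CPM by the submitters, are a score. Each is the log2 CPM (0.5 added to the reads) over a factor of its library that brings the column sum to 1000000. All of the deposited values (100%) decoded to whole reads within a tolerance of 0.01. CPM were recomputed with the authors' effective library sizes, which the decoding also gives.

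The 18 LNCaP libraries, 3 in each of 6 groups, were fitted with 1 mean per group (12 residual degrees of freedom) on log2(CPM + 0.5) by limma 3.58.1 in R 4.3.3, using its mean-variance trend. The filter was 1 CPM or more in 3 libraries or more. Tests were two-sided, with Benjamini-Hochberg adjustment over all genes and a threshold of 0.05. Levels are given with the SD and log2 fold changes with the SE, for n = 3 libraries a group. Scripts were tested on simulated data. Count models were not run on a table of scores; voom weights on the decoded reads served as an alternative. Other alternatives were pseudocounts of 0.1 and 2, no filter, total read and median-of-ratios scaling, other sets of libraries, a replicate block and leaving out each library. Symbols, matched for 18917 of 19225 gene IDs, coordinates and promoters are from RefSeq GRCh38.p14.

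Groups came from the sample titles and treatment labels. The members, the gene lists and the tests were chosen with earlier results of these data known. Genes were named by a rule on called genes that have a symbol, average 1 CPM or more and have groups that do not overlap: the 15 farthest up and the 15 farthest down between E2+Enza and vehicle, and 5 each way elsewhere. For non-additivity and the differences between lines, groups without overlap were not required, and the average was taken over all groups involved. A set of 23 fixed genes and up to 4 members of each list with the smallest p were added. The grouping by E2 against Enza, the genes outside all 3 other groups and the alternatives for the position measure were chosen after seeing the data. Some list members were not analysed or are not reported here.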

Additional observations from a re-analysis of the deposited data

Results flagged for a closer look

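The effect of E2+Enza over vehicle differed from that in LNCaP in 631 genes in 22Rv1 and in 87 genes in C4-2, by the test of the difference itself (limma on 54 libraries). In the values that follow, a positive difference means a higher log2 fold change in the other line than in LNCaP.

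In 22Rv1 the larger values were in F3, the tissue factor gene (1.29), MBOAT2 (1.21), SYNPO2, an actin-binding protein (1.18), the membrane protein STEAP1 (1.11) and ADRA2A, an adrenergic receptor (1.08). STEAP1 averaged 49.4 CPM with E2+Enza and 21.9 CPM with vehicle in 22Rv1, and 186 CPM with E2+Enza and 179.5 CPM with vehicle in LNCaP. Below 0 in 22Rv1 were the differences of CCDC141 (-1.23), the early growth response factor EGR3 (-1.17), UGT2B28 (-1.13), PHLDB2 (-1.11) and NNT (-1.11). NNT averaged 49.5 CPM with E2+Enza and 49.8 CPM with vehicle in 22Rv1, and 1.58 CPM with E2+Enza and 0.461 CPM with vehicle in LNCaP. EGR3 averaged 4.30 CPM with E2+Enza and 10.5 CPM with vehicle in 22Rv1, and 0.3 CPM with E2+Enza and 0.314 CPM with vehicle in LNCaP. CCDC141, UGT2B28 and EGR3 were not called with a pseudocount of 0.1, nor were CCDC141, UGT2B28, EGR3, F3 and SYNPO2 with voom weights. UGT2B28 averaged 0.216 CPM with E2+Enza and 0.0517 CPM with vehicle in 22Rv1, below the pseudocount of 0.5, so that its difference there depends on that setting. F3 and SYNPO2 lay under 0.3 CPM in both LNCaP groups, and CCDC141 lay at 0.176 CPM with E2+Enza and had no read in the vehicle libraries of 22Rv1.

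In C4-2 the differences were above 0 for OPRK1 (0.99), DAPK1 (0.98), the collagen-tail gene COLQ (0.92), SLITRK3 (0.74) and the adhesion receptor ADGRV1 (0.60). The difference of DAPK1 was also above 0 in 22Rv1 (1.08). ADGRV1 averaged 22.3 CPM with E2+Enza and 19.1 CPM with vehicle in C4-2, and 30.003 CPM with E2+Enza and 39.1 CPM with vehicle in LNCaP. They were below 0 for SLC38A4 (-1.50), UGT2B28 (-1.34), TMEM121B (-1.25), NNT (-1.11) and CCDC141 (-1.10). Of 19 alternatives, COLQ kept its call in 10 and SLITRK3 in 8. OPRK1, SLC38A4, CCDC141 and UGT2B28 were not called with a pseudocount of 0.1 or with voom weights. UGT2B28 had at most 6 reads with E2+Enza and 2 with vehicle in a C4-2 library. OPRK1 and SLITRK3 lay under 0.1 CPM in both C4-2 groups, so that no fall could be seen there at this depth.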

How the results depend on the processing

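Of 107 named genes called between E2+Enza and vehicle, 67 were called in all 15 alternatives, 40 lost the call in at least 1 and 0 changed sign; 22 of 75 genes not called were called in at least 1. The 1058 calls became 644 with the libraries of the 2 groups alone and 657 in the fit of 54 libraries, and ran from 568 to 1389 as single libraries were left out: 568 without E2+Enza 1, 653 without E2+Enza 2 and 682 without vehicle 2. The 13 genes at 2-fold became 31 with a pseudocount of 0.1, 6 with 2 and 39 with voom weights. Non-additive genes were 832 in the fit of 54 libraries. Enza against vehicle gave 2911 calls of 14251 in the main fit and 1857 of 13857 from its own libraries. The line differences for 22Rv1 were 795 with a pseudocount of 2 and ranged from 379 to 661 as single 22Rv1 or LNCaP libraries were left out, lowest without 22Rv1 vehicle 1, with 689 without C4-2 E2+Enza 3 (208 higher and 307 lower over total reads), and from 43 to 190 for C4-2: 43 without LNCaP E2+Enza 1, 45 and 190 without C4-2 E2+Enza 2 and 3, 51 without C4-2 vehicle 1 and 56 without LNCaP vehicle 2 (31 higher and 33 lower over total reads). Genes outside all 3 other groups were 6 over total reads, and 4 to 22 as single libraries were left out: 7 and 4 without E2+Enza 1 and 2, 10 without vehicle 2 and 11 without E2 3. With voom weights 4 line differences, none called there, changed sign: CCDC141 (22Rv1, 1.93), SLITRK3 (C4-2, -0.11) and UGT2B28 (22Rv1, 0.48; C4-2, 0.17). The cause was not tested in any of these. The replicate numbers did not pair the libraries (same-number correlations of E2+Enza and vehicle 0.06, -0.01 and -0.08), and a replicate block gave 1081 calls. Depth, at 0.0207 to 0.0255 CPM a read, limits genes under 1 CPM.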

Other observations

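In LNCaP, 18 of 14251 genes (0.126%) were called on one side of E2, Enza and vehicle alike, 12 with E2+Enza above all of them and 6 below; these comparisons share the E2+Enza libraries. MME, the membrane peptidase neprilysin, had 883, 881 and 849 CPM in E2+Enza libraries, 1038, 1060.2 and 1039 CPM with E2, 1068, 1046 and 1078 CPM with Enza, and 991, 963 and 954 CPM with vehicle. All 3 E2+Enza libraries lay below all 9 others. MME alone kept its place with each E2+Enza library left out in turn. The log2 fold change over vehicle was -0.15 ± 0.03 (adjusted p = 0.00439, limma). AHNAK2, a scaffold protein, had 20.1, 20.7 and 18.4 CPM with E2+Enza, against 16.5, 15.97 and 15.3 CPM with vehicle (0.30 in log2 fold change; adjusted p = 0.00813). The kinase MAP2K6 had 13.5, 14.8 and 14.1 CPM with E2+Enza, against 10.6, 10.9 and 11.5 CPM with vehicle (0.35; adjusted p = 0.0038). Others above were EDEM2, B4GAT1, SOX13, H6PD, RAB3IP, PLEC, PTPRS, MYC, LRP5 and RDH11, and others below were SCNN1G, SDHAP3, SYT4, PCNP and HNRNPA2B1.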
